A study of Mus musculus with 2 samples.

Results

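Spp1-Postn-Mmp13-high preosteoblasts were bone-forming precursor cells of mouse femur marrow that held the most transcripts of 3 secreted matrix genes. There were 451 of them among 7332 cells, 144 in Mouse #1 and 307 in Mouse #2. Single-cell RNA sequencing had been run on cells sorted as Cxcl12-GFP+ from 2 mice, 1 library a mouse, and both mice formed 1 group. Comparisons were therefore made between classes of cells of the same mice, and the mouse was the replicate. Both mice carried Cxcl12(GFP/+), in which GFP replaces 1 copy of the chemokine gene Cxcl12, together with Cxcl12-creER, a transgene on Cxcl12 regulatory sequence, and the R26R-tdTomato reporter. They received tamoxifen at postnatal day 21 and were taken at postnatal day 28, with the growth plates removed from the femurs. 1 label field names tdTomato+ cells as the sorted population, while the other fields name GFP+ cells.

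The cells were chosen in steps from their unique molecular identifiers (UMIs), tags that let each captured transcript be counted once. A preosteoblast had at least 5 UMIs of Alpl, Wif1, Kcnk2 and Limch1 per 10000, more of these than of the reticular genes Adipoq, Lpl and Hp, and fewer than 50 of the osteocalcin genes Bglap and Bglap2. It had at most 1 UMI each of the blood cell gene Ptprc, the endothelial gene Cdh5 and the cycling genes Mki67 and Top2a in sum. This gave 288 preosteoblasts in Mouse #1 (10.5% of its cells, Wilson 95% interval 9.38 to 11.7) and 613 in Mouse #2 (13.4%, 12.4 to 14.4). Members lay at or above their own library's median of Spp1 plus Postn plus Mmp13 per 10000, and the remaining preosteoblasts (144 and 306) are called low preosteoblasts. Members made up 5.24% of the cells of Mouse #1 (4.46 to 6.13) and 6.70% of those of Mouse #2 (6.01 to 7.46). All cells kept were counted in these shares, blood cells with Ptprc among them. The rule divides the preosteoblasts evenly, so these shares follow from the number of preosteoblasts, and the intervals cover counting error only.

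Preosteoblasts are committed cells of the osteoblast lineage that have not yet filled the bone surface with osteocalcin-rich matrix. Spp1 encodes osteopontin, a phosphorylated matrix protein that binds mineral and integrins, Postn encodes periostin, a matricellular protein of periosteum and other collagen-rich tissue, and Mmp13 encodes collagenase-3, which cuts fibrillar collagen and is made by osteoblast-lineage cells and hypertrophic chondrocytes. The RUNX family factor of the lineage binds a TGTGGT core, and AP-1 factors bind TGANTCA.

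The promoters of the 3 genes that chose the cells, and of Dmp1, the gene with the highest fold change among those called higher in them, are shown 5′ to 3′ from RefSeq (GRCm38.p6), with 250 bases before the start and 50 after it. Capitals mark TGTGGT on either strand (ACCACA on the strand shown) and TGANTCA. All 4 genes had an entry. Spp1, Postn and Dmp1 had 2 windows each, and the one nearest to the start of the gene in GENCODE is shown.
Spp1: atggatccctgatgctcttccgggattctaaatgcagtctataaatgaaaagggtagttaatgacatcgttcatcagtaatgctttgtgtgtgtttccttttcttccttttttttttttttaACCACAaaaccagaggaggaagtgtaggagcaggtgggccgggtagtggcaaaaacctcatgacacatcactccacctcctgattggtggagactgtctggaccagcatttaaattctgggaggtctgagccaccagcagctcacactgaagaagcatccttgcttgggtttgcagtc
Mmp13: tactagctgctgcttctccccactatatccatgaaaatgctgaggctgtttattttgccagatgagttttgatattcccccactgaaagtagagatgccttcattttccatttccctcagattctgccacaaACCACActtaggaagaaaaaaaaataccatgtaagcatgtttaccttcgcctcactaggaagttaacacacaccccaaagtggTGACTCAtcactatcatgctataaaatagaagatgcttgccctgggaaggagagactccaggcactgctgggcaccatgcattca
Postn: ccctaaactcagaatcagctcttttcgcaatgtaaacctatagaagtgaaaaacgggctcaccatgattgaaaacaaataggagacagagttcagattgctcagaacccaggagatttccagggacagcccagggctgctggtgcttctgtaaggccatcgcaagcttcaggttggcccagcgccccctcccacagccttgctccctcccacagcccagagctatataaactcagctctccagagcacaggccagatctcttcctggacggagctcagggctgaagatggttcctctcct
Dmp1: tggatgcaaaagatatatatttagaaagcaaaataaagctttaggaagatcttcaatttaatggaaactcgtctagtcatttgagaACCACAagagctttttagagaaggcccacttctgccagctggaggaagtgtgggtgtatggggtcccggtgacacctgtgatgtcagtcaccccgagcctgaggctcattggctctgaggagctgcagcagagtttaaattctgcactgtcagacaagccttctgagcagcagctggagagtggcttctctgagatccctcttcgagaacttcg
These windows lie on the plus strand at chr5:104434861-104435160 (Spp1), chr9:7272264-7272563 (Mmp13), chr3:54360857-54361156 (Postn) and chr5:104202367-104202666 (Dmp1). The RUNX core began 128 bases before the start of Spp1, 118 before that of Mmp13 and 164 before that of Dmp1. The AP-1 motif began 35 bases before the start of Mmp13. Of 32851 promoter windows of this length, 16.8% held the RUNX core and 7.81% the AP-1 motif, so a match of the former was common. No match was found in the Postn window shown, nor in the other window of Spp1, Postn or Dmp1. Spp1 and Dmp1 belong to a run of secreted phosphoprotein genes on chromosome 5, all on the plus strand, with Ibsp (104299171 to 104311469) and Mepe (104325329 to 104338611) between Dmp1 (104202613 to 104214102) and Spp1 (104435118 to 104441050) in mm10.

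The score that chose the cells is given as a description. The threshold was 35.3 UMIs per 10000 in Mouse #1 and 17.1 in Mouse #2. The members nearest to it had 35.5, 36.5 and 36.8 in Mouse #1 and 17.1, 17.2 and 17.2 in Mouse #2. The cells just outside had 35.1, 34.7 and 34.6 in Mouse #1 and 17.0, 16.9 and 16.7 in Mouse #2. Values ran through the threshold without a gap, and 64 low cells of Mouse #1 exceeded the threshold of Mouse #2. The member median was 69.6 in Mouse #1 and 42.7 in Mouse #2, and the highest cells reached 902 and 1170.

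**Figure D1:**
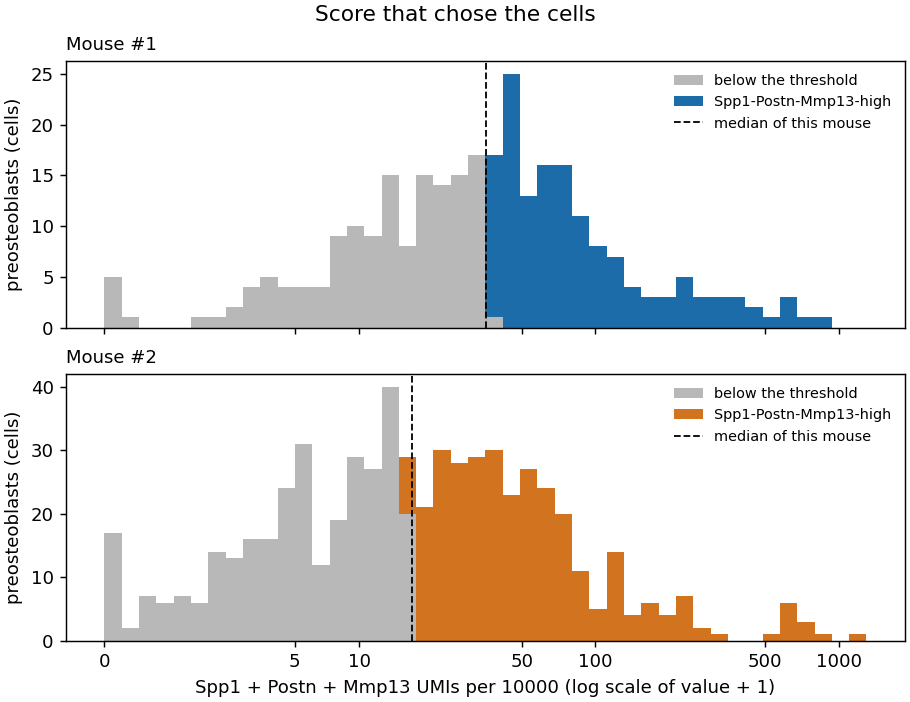
Number of preosteoblasts (y) by summed Spp1, Postn and Mmp13 UMIs per 10000 (x, log scale of the value plus 1), with low cells in grey, members in colour and the library median dashed. Scores run through the median without a gap in each mouse, with the median at 35.3 in Mouse #1 and 17.1 in Mouse #2 and a tail up to 902 and 1170.

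Spp1 carried most of the score. Its mean per member was 79.2 UMIs per 10000 in Mouse #1 and 54.1 in Mouse #2, against 5.27 and 2.53 in low preosteoblasts. The median member held only 30.0 and 17.4, so a minority of cells held very much. Mmp13 averaged 40.8 and 26.9 in members against 8.53 and 2.19 in low cells. Postn averaged 4.02 and 3.60 against 2.35 and 2.37, a far smaller step. Spp1 gave 63.9% of the summed score in each mouse and Postn 3.24% and 4.25%. Spp1 made up over 50% of the score in 69 members of Mouse #1 and 134 of Mouse #2, Mmp13 in 70 and 143, and Postn in 0 and 3. Among members, Spp1 and Mmp13 had a Spearman correlation of -0.26 over 144 cells and -0.07 over 307 (a description, since the cells share a library and were cut on the sum). Over all preosteoblasts, before the cut, this correlation was positive, 0.28 in Mouse #1 (288 cells) and 0.35 in Mouse #2 (613 cells).

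The label "high matrix genes" was checked against genes that the choice did not use, and these went both ways. In CPM, the UMIs of a gene scaled to a fixed total of UMIs in the class, osteomodulin (Omd), a small proteoglycan that binds collagen, was at 131 and 680 in members of Mouse #1 and Mouse #2 and at 352 and 944 in low cells. The neuropeptide gene Npy was at 2.98 and 26.2 in members and 7.48 and 118 in low cells. In Mouse #1 this rested on 8 Npy UMIs in 2 members and 16 in 5 low cells. Collagen I (Col1a1) was at 2759 and 5010 in members and 7775 and 13067 in low cells. All 3 levels were lower in members of both mice, although none passed the test without the mouse block that is given further on. Pdk4, which restrains pyruvate use by mitochondria, was at 208 and 207 against 161 and 189, and the Wnt inhibitor Wif1, a gene of the preosteoblast rule, at 875 and 542 against 873 and 810. Bone sialoprotein (Ibsp) was higher in members of both mice, at 2775 and 2115 CPM against 1629 and 611, as was tenascin C (Tnc), at 4641 and 3382 against 4382 and 2450, and neither passed. The cells are accordingly named for the 3 genes that chose them. The preosteoblast markers Runx2 (319 and 339 CPM) and Sp7 (114 and 98.3) were present in both mice.

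Depth differed somewhat between the classes. Members held a median of 17256 UMIs in Mouse #1 and 16215 in Mouse #2, low cells 13343.5 and 15004. The libraries held 54940400 and 88790688 UMIs. There were 7 cell barcodes shared between the libraries, 2 of them among the members of Mouse #1.

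The question put first was which other genes separated high from low preosteoblasts. Timp1, a secreted inhibitor of matrix metalloproteinases, Dmp1, an acidic phosphoprotein of osteocytes and mineralizing matrix, and Ank, a transporter that brings pyrophosphate and ATP out of the cell, were higher in members. Cpz, a secreted carboxypeptidase, and Prss35, a serine protease-like protein, were lower. These 5 genes were called among 11625 tested by edgeR's quasi-likelihood test with Benjamini-Hochberg adjustment (0.043%, of which 0.0258% higher and 0.0172% lower), and 798 had p under 0.05 before adjustment. A fit that blocked on the mouse, and so used that both classes came from the same animals, called 32 genes (0.275%), 15 of them higher (0.129%) and 17 lower (0.146%). With the block and only these 2 classes in the fit, an alternative chosen after seeing the data, 276 genes were called, 165 higher and 111 lower.

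Timp1 (chromosome X, 20870166 to 20874735) stood at 314 CPM in members of Mouse #1 and 258 in those of Mouse #2, against 69.2 and 62.3 in low cells. The log2 fold change was 2.14 ± 0.20 (SE), with an edgeR adjusted p of 0.0146. In mature osteoblasts, defined further on, Timp1 was at 238 and 318 CPM. Against those cells it was called lower in members, on the fitted scale but not in the CPM of Mouse #1. Timp1 was found in 58.3% of members of Mouse #1 and 45.6% of Mouse #2, and in 29.9% and 39.2% of low cells. After each cell was thinned to 2000 UMIs these shares were 27.1% and 18.4% against 8.33% and 10.9%. In Ptprc cells, which should lack it, the thinned shares were 0.232% and 1.20%. The median depths of Ptprc cells were 11556.5 and 10074 UMIs.

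Dmp1 stood at 92.0 and 47.4 CPM in members and at 0.935 and 2.11 in low cells. The log2 fold change came to 5.28 ± 0.57 (SE) with an edgeR adjusted p of 0.0215, yet few cells carried it. A Dmp1 UMI was found in 28 members of Mouse #1 and 19 of Mouse #2, and the 5 highest cells held 59.1% and 82.9% of the Dmp1 UMIs. At 2000 UMIs a cell, Dmp1 was seen in 10.4% and 1.97% of members, in 0% and 0.987% of low cells, and in 0% and 0.240% of Ptprc cells. For counting error alone, the Wilson intervals were 6.42 to 16.5% of members and up to 2.60% of low cells in Mouse #1, and 0.905 to 4.23% and 0.336 to 2.86% in Mouse #2, where they overlapped. Sost, the osteocyte's secreted Wnt antagonist, had no UMI in members of either mouse.

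Ank (chromosome 15, 27466677 to 27594909) stood at 50.7 and 60.3 CPM in members against 17.3 and 21.8 in low cells (log2 fold change 1.48, SE 0.18, edgeR adjusted p = 0.0296). It was spread over more cells than Dmp1, with the 5 highest members holding 33.8% of its UMIs in Mouse #1 and 44.3% in Mouse #2. In Mouse #2, 1 member alone held 19.3%. Ank was found in 38.2% and 34.2% of members and in 19.4% and 26.5% of low cells. Cpz fell, from 25.2 and 31.6 CPM in low cells to 0.372 and 2.58 in members (log2 fold change -3.99, SE 0.45, adjusted p = 0.0215). In Mouse #1 the Cpz UMIs of low cells came from 4 cells. Prss35 stood at 10.7 and 22.0 CPM in low cells and 0.372 and 0.922 in members (log2 fold change -4.56, adjusted p = 0.0215). In Mouse #1 the Prss35 UMIs of low cells came from 3 cells, 91.3% of them from 1 cell. Prss35 did not reach the level set for naming genes and is given because so few were called.

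Fits that left out the members of 1 mouse had a single sum in that class, so they cannot show how far each mouse carried the calls. Leaving out the members of Mouse #1 left 0 calls and leaving out those of Mouse #2 left 2. When preosteoblasts with 20 or more Bglap plus Bglap2 UMIs per 10000 were left out, 1 call was left, and it was Timp1.

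**Figure D2:**
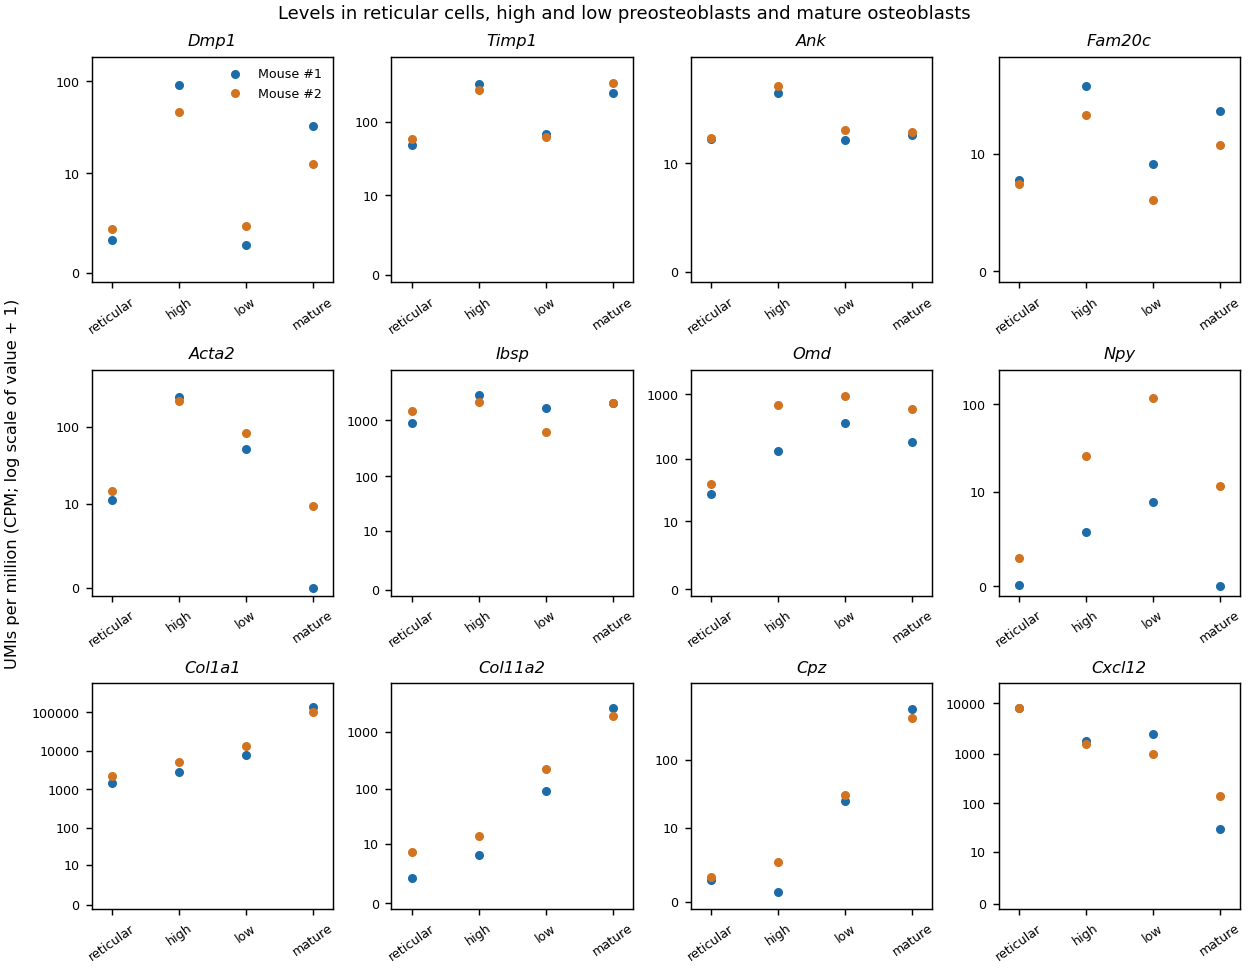
Level of 12 genes in CPM (y, log scale of the value plus 1) in reticular cells, high and low preosteoblasts and mature osteoblasts (x), with 1 point a mouse. Dmp1, Timp1 and Ank lie above the low preosteoblasts in both mice, while Col11a2 and Cpz lie far below the mature osteoblasts.

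More genes passed with the mouse as a block. Fam20c, the kinase that phosphorylates secreted proteins such as osteopontin and Dmp1, was at 42.5 and 23.1 CPM in members and 7.94 and 3.26 in low cells (log2 fold change 2.65, blocked edgeR adjusted p = 0.00487). Phex, an osteocyte endopeptidase that acts in phosphate control, was at 53.3 and 38.2 against 21 and 9.39 (adjusted p = 0.0428 in that edgeR fit). Neither gene passed without the block. Also passing with the block was the integrin subunit Itgb5 (185 and 122 against 64.5 and 38.5 CPM), which pairs with alpha-v to bind osteopontin. The calcium-binding S100a4 (27.6 and 42.4 against 8.41 and 13.0) and smooth muscle actin Acta2 (236 and 212 against 51.9 and 82.8) passed too. Acta2 was found in 22.9% and 32.6% of members, and the 5 highest cells held 76.7% and 34.6% of its UMIs. The mural genes Rgs5 and Myh11 were at 0 in members of Mouse #1 and at 1.66 and 0.369 CPM in those of Mouse #2, while the 4 mural markers with Acta2 summed to more in members than in low cells of both mice, and their part was not tested. The water channel Aqp1, the cyclin Ccnd1, Glipr1 and Ifi204 rose in the blocked fit as well. Ptprc cells had 282 and 121 CPM of S100a4 and 117 and 74.2 of Glipr1, above members of both mice. The part of such cells in these levels was not tested. Mmp9, gelatinase B, passed with the block at 72.6 and 16.8 CPM against 1.87 and 0.766, but 1 cell held 60.5% of its UMIs in members of Mouse #1. Reticular cells, defined further on, had 74.0 and 24.1 CPM of Mmp9 and 99.0 and 123 of Ifi204, above members of both mice. Mmp9 was found in 13.2% and 10.1% of members and in 44.7% and 46.6% of Ptprc cells, and the part of such cells in its level was not tested.

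There were 17 genes lower in members in the blocked fit. Col11a2, a chain of collagen XI, was at 5.96 and 14.0 CPM in members and 91.6 and 223 in low cells (log2 fold change -3.92, blocked edgeR adjusted p = 0.0121). Its UMIs in low cells of Mouse #1 came from 8 cells. Ifitm5, which osteoblasts make while they mineralize matrix, was at 11.9 and 9.41 against 53.7 and 80.1 CPM. Col22a1 was at 9.68 and 7.19 against 36.0 and 46.7, and Cthrc1, a secreted protein of collagen-making cells, at 17.9 and 21.4 against 115 and 193. In low cells of Mouse #1 the 5 highest cells held 95.7% of the Ifitm5, 85.7% of the Col22a1 and 94.3% of the Cthrc1 UMIs, and Cthrc1 was found in 8.33% of these low cells and 12.5% of members. The citrate transporter Slc13a5, Cgref1, Stard9, Plppr5 and Npy fell too. Npy changed by -2.10 in log2 there (adjusted p = 0.00251, edgeR with the block) and did not pass without it (-2.05, adjusted p = 0.756). In Mouse #1 only 2 members and 5 low cells held a Npy UMI.

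The fixed gene lists showed which matrix genes moved and which did not. Of 21 tested bone matrix and mineralization genes, 2 rose (Ank and Dmp1) and 0 fell, with a median log2 fold change of -0.46 against -0.0014 over all genes tested. In the blocked fit 3 rose, with Phex, and 3 fell (Col11a2, Col22a1 and Ifitm5). Both directions were thus present in a single list. Col1a1 changed by -1.42 ± 0.39 (SE) in log2 (adjusted p = 0.391 by edgeR) and Col1a2 by -1.12 (adjusted p = 0.431), so the lower collagen level of members did not pass. Ibsp, bone sialoprotein, had 1.17 (adjusted p = 0.614) and Enpp1, which makes pyrophosphate, 1.59 (adjusted p = 0.346). Of 9 small leucine-rich proteoglycans 0 passed, and only 1 had a positive change (median -0.69). Of 10 metalloproteinases and inhibitors 1 passed, Timp1.

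Factors and signals of the lineage showed no call. None of 12 osteoblast transcription factors passed (median log2 fold change -0.22), with Runx2 at 0.00062 (SE 0.18) and Sp7, osterix, at -0.29 (SE 0.20). Of 21 Wnt pathway genes (median -0.19), 18 BMP and TGF-beta genes (-0.016), 9 genes of the PTH receptor and cAMP (0.062) and 12 of energy metabolism (0.15), 0 passed in each list. The same held for 15 collagen processing genes (0.12), 11 secretory pathway genes (0.016), 16 reticular niche genes (-0.033) and 10 immediate early and heat shock genes (0.12). In the blocked fit these 9 lists also had 0 calls.

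**Figure D3:**
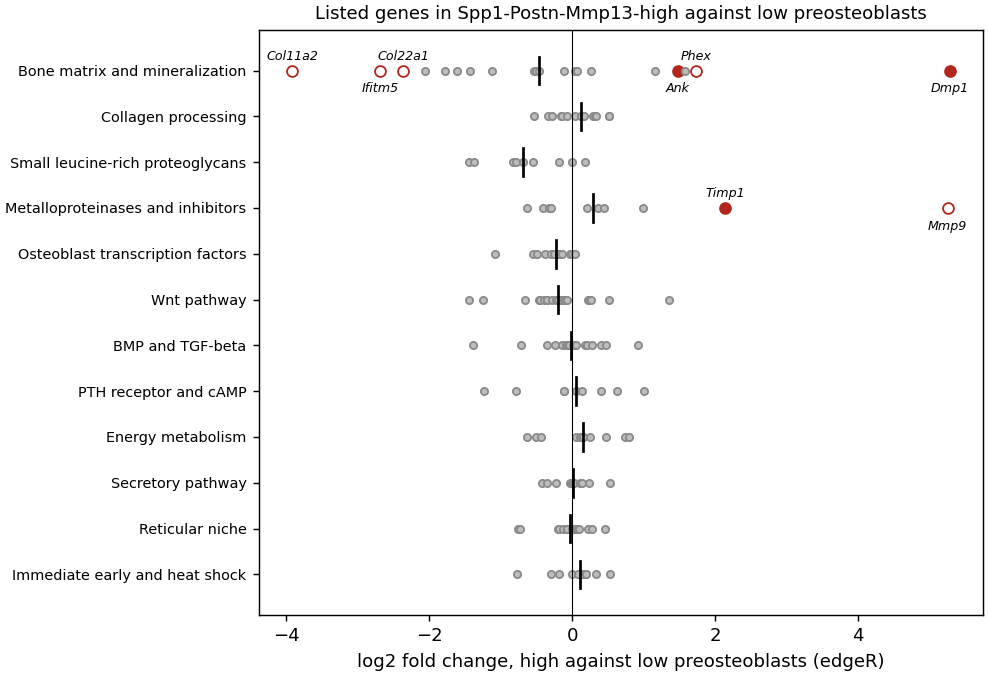
Log2 fold change of high against low preosteoblasts by edgeR (x) for the genes of each list (y), with the list median as a black bar. Filled red points passed without the mouse block, open red points only with it, and the bone matrix list has calls on both sides of 0.

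Levels over 4 equal parts of the preosteoblasts, ordered by score within each mouse, were not a straight run for most genes. The part of lowest score held the most Col1a1, 10951 CPM in Mouse #1 and 21877 in Mouse #2, and the third part only 1724 and 3547. The highest part held 3520 and 6293, more than the third. Not every collagen had this order, and Col5a1 was at 297 and 368 CPM in the lowest part and 307 and 419 in the highest. Timp1 was at 80.9 and 34.3 CPM in the third part and 485 and 455 in the highest, so its excess in members lay in the highest part. Ank showed the same shape, 17.6 and 22.5 in the third part and 75 and 93.5 in the highest. Dmp1 was at 30.8 and 6.32 CPM in the third part and 137 and 83.4 in the highest. Ibsp reached 3911 and 3103 CPM in the highest part, and Omd its lowest level there, 81.4 and 411. Col11a2 stood at 141 and 427 CPM in the lowest part and at no more than 37.9 in the others of both mice.

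**Figure D4:**
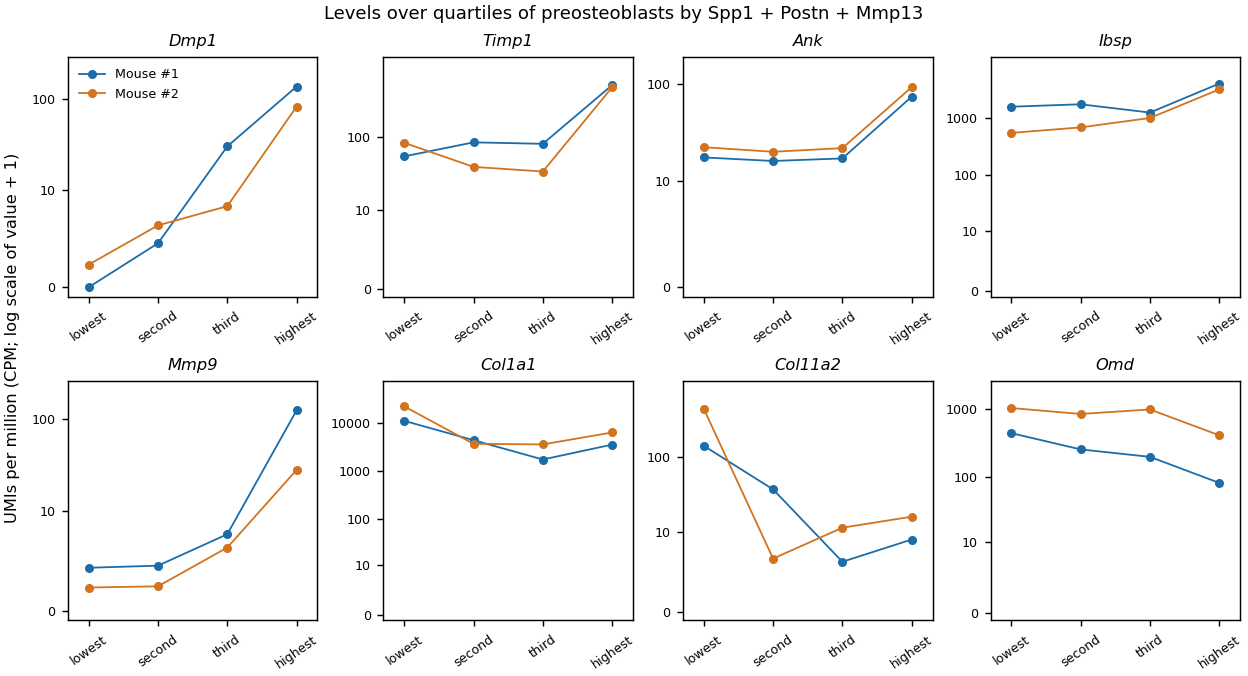
Level in CPM (y, log scale of the value plus 1) of 8 genes over 4 equal parts of the preosteoblasts, from lowest to highest score (x), with 1 line a mouse. Timp1, Ank and Dmp1 reach their top in the highest part and Col1a1 in the lowest part of both mice.

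Members differed among themselves by which gene led them. Each member was assigned to the gene whose level, divided by that gene's mean over the members of its mouse, was highest. This gave 32 Spp1-led, 46 Postn-led and 66 Mmp13-led members in Mouse #1, and 67, 113 and 127 in Mouse #2. Median depth followed the leader, at 20128.5 and 20029 UMIs for Spp1-led, 18703.5 and 18096 for Postn-led and 14984 and 13342 for Mmp13-led members. The genes called between high and low preosteoblasts differed by leader. Dmp1 was at 283 and 164 CPM in Spp1-led, 41.6 and 12.4 in Postn-led and 24.3 and 1.08 in Mmp13-led members. Timp1 was at 869 and 700 CPM in Spp1-led members, 138 and 106 in Postn-led and 141 and 106 in Mmp13-led members. Ank was at 118 and 159, then 46.1 and 35.8, then 16.5 and 15.1 CPM in the same order. In both mice the Spp1-led members were highest for all 3 genes. Phex was not so ordered, at 52.9 and 49.7 CPM in Spp1-led and 75.3 and 37.2 in Postn-led members.

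Between Mmp13-led and Spp1-led members, the called reticular niche genes were higher on the Mmp13 side. Of 9375 genes tested, 57 were called (0.608%, 0.331% higher and 0.277% lower in Mmp13-led members), and 410 with the mouse as a block (4.37%, 2.41% higher and 1.96% lower). Cxcl12, the chemokine that holds blood progenitors in marrow, was at 2702 and 2741 CPM in Mmp13-led and 780 and 686 in Spp1-led members (log2 fold change 1.81, SE 0.18, edgeR adjusted p = 0.0012). Kitl, stem cell factor, was at 250 and 328 against 93.4 and 81.4 (adjusted p = 0.00583, edgeR). Il7, which lymphoid precursors need, was at 47.7 and 52.2 against 9.34 and 7.20 CPM, and Esm1, a secreted proteoglycan, at 56.4 and 92.1 against 14.0 and 13.0. Of 16 reticular niche genes 5 were higher, the fifth being the transcription factor Cebpa, and 16 had a positive change (median 1.05, against 0.0093 over all genes). In the blocked fit 13 of 16 were higher. The glutamine synthetase gene Glul, the interferon-induced Iigp1, Rmnd1 and the Wnt enhancer Rspo3 rose as well. The eGFP reporter, read from the same locus as Cxcl12, was at 5340 and 4153 against 1581 and 1626 CPM.

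Other genes were higher on the Spp1 side. S100a4 was at 62.3 and 105 CPM in Spp1-led members and 5.21 and 4.31 in Mmp13-led members (log2 fold change -4.28, SE 0.35, edgeR adjusted p = 0.000256). Ptprc cells had 282 and 121 CPM of S100a4, above Spp1-led members of both mice, and their part was not tested. Fam20c was at 106 and 64.1 against 14.7 and 4.85 CPM, and Insc, an adaptor of cell polarity, at 42.0 and 29.5 against 4.34 and 1.08. Ank fell by 3.25 on the log2 scale, Timp1 by 2.76 and Dmp1 by 4.44, all past the threshold. Col13a1, a membrane collagen, had 1 UMI in all Mmp13-led members against 19 and 61 in the Spp1-led members of the 2 mice, a ratio of 119 (counting interval 20.7 to 4742). Of 19 bone matrix genes 4 fell (Ank, Dmp1, Enpp1 and Ibsp) and 0 rose. Ibsp was at 4848 and 3772 CPM in Spp1-led and 1952 and 1535 in Mmp13-led members. Among transcription factors Creb3l1, which drives collagen secretion, and Mef2c were lower in Mmp13-led members, as was the Wnt pathway factor Tcf7. Leaving out the Mmp13-led sum of Mouse #1 left 35 calls and that of Mouse #2 left 10. With cells of 20 or more Bglap plus Bglap2 left out there were also 35.

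Small proteoglycans and immediate early genes were among the calls between Postn-led and Spp1-led members. Of 9375 genes 41 were called against Spp1-led members (0.437%, 0.277% higher and 0.16% lower), and 330 with the mouse as a block (3.52%, 2.03% higher and 1.49% lower). Lumican (Lum), which organizes collagen fibrils, was at 773 and 752 CPM in Postn-led and 283 and 287 in Spp1-led members (log2 fold change 1.41, SE 0.25, edgeR adjusted p = 0.0349). Asporin (Aspn) was at 27.0 and 280 against 0 and 3.60 CPM, unequal between the mice. Of 8 small proteoglycans 2 rose, Lum and Aspn, and 6 did in the blocked fit, with Dcn, Ogn, Omd and Prelp (median 1.28 against 0.0042 over all genes). Fos was at 965 and 1296 against 157 and 398 CPM, and Egr1 and the chaperone gene Dnajb1 rose as well, 3 of 10 immediate early and heat shock genes. In Mmp13-led against Spp1-led members Dnajb1 rose too, and in the blocked fit 6 of the 10 were higher and 1 lower (Hspa1a), beside 6 higher and 0 lower in Postn-led against Spp1-led members. Both comparisons share the Spp1-led members, and the difference between them was not tested. These genes are also induced by cell handling, whose part was not tested. The myelin gene Pmp22 rose, at 27.0 and 38.1 against 1.56 and 5.76 CPM. With the block, Dmp1 and Mmp9 were lower and 11 of 16 reticular niche genes higher.

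Several genes were lower in Postn-led than in Spp1-led members. Timp1 fell by 2.71 in log2 (adjusted p = 0.000277 by edgeR). Inhba, the activin A subunit, was at 7.86 and 13.8 CPM against 87.2 and 53.3, and Il1rn, the interleukin-1 receptor antagonist, at 23.6 and 16.5 against 143 and 75.6. The engulfment receptor Megf10, the aryl hydrocarbon receptor Ahr and the collagen Col18a1 fell as well, as did Ank and Enpp1. The hemoglobin genes Hba-a1, Hba-a2, Hbb-bs and Hbb-bt were also called higher in Postn-led members. In each mouse a single Postn-led cell held most of these UMIs (98.7% and 96.5%). Without those cells the 4 genes summed to 298 and 265 CPM, and the other leader groups lay between 271 and 321 CPM. Leaving out the Postn-led sum of Mouse #1 left 61 calls and that of Mouse #2 left 17.

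**Figure D5:**
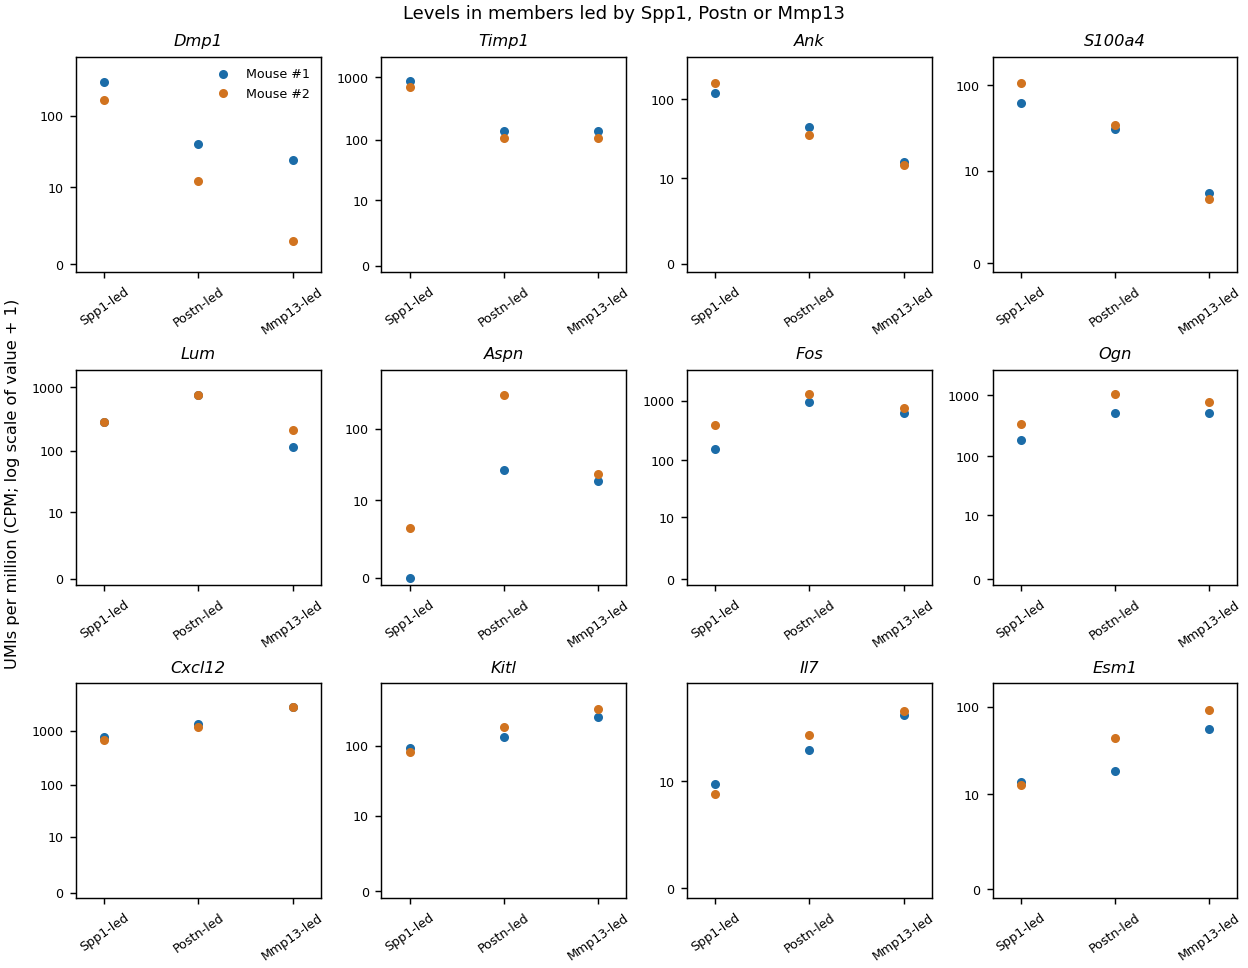
Level in CPM (y, log scale of the value plus 1) of 12 genes in members led by Spp1, Postn or Mmp13 (x), with 1 point a mouse. Dmp1, Timp1, Ank and S100a4 are highest in Spp1-led members of both mice, Lum in Postn-led and Cxcl12, Kitl, Il7 and Esm1 in Mmp13-led members.

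Against mature osteoblasts, more genes were lower than higher in members. Mature osteoblasts were cells with at least 50 Bglap plus Bglap2 UMIs per 10000, of which there were only 9 in Mouse #1 and 69 in Mouse #2. Of 11625 genes 2013 were called (17.3%, 7% higher and 10.3% lower in members). Col1a1 was at 2759 and 5010 CPM in members and 139439 and 102722 in mature cells (log2 fold change -5.71, SE 0.47, edgeR adjusted p = 0.000122). Of 21 bone matrix genes 14 fell and 3 rose, the latter being Tnc (4641 and 3382 against 196 and 638 CPM), Enpp1 and Ank. Of 15 collagen processing genes 12 fell and 1 rose, and of 11 secretory pathway genes 8 fell and 1 rose. Of 10 metalloproteinases and inhibitors 4 fell, Timp1 among them, and 0 rose. Of 12 transcription factors 7 fell, Sp7 and Creb3l1 among them, and 0 rose. Dmp1 was at 33.6 and 12.8 CPM in mature cells, and its log2 fold change of 1.39 did not pass (adjusted p = 0.0878).

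Among the 12 collagen processing genes, the collagen chaperone gene Serpinh1 was at 1340 and 1437 CPM against 2342 and 2868, while Ppib, at 940 and 853 against 863 and 1070, was lower on the fitted scale but not in the CPM of Mouse #1. Cpz and Prss35 were at 521 and 388 and at 188 and 239 CPM in mature cells and at no more than 2.58 in members. Slc13a5 was at 297 and 305 CPM against 0.372 and 1.11. Rassf4 had no UMI in members and was at least 60.0-fold lower, with 3 UMIs over all members as the floor. Ptprc cells had 70.7 and 39.6 CPM of Rassf4, above mature cells (22.4 and 22.2), and their part was not tested. Creb3l3 and Mamdc2 had 1 UMI each in all members, ratios of 333 (counting interval 58.7 to 13253) and 357 (63.0 to 14208). Higher in members were Acta2 (236 and 212 against 0 and 9.39 CPM), the mineralization inhibitor Mgp (102 and 84.7 against 2.80 and 3.38), Kng1, Tmem178, Rapgef3 and Glipr1. The 10 highest genes took 49.5% and 33.1% of the UMIs of mature cells and 14.5% and 15.7% of those of members. Fitted changes of this comparison were lower than the plain CPM ratios by a median of 0.75 on the log2 scale. Leaving out the members of Mouse #1 left 1185 calls and leaving out those of Mouse #2 left 1046.

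Against reticular cells, osteoblast transcription factors were among the genes that rose in members and reticular niche genes among those that fell. Reticular cells, 1487 and 2901 in number, had at least 5 UMIs of Adipoq, Lpl and Hp per 10000 and no fewer than of the preosteoblast genes. Of 11625 genes 2170 were called (18.7%, 8.3% higher and 10.4% lower in members). Of 12 transcription factors 7 rose and 1 fell. Sp7 was at 114 and 98.3 against 16.1 and 11.3 CPM (log2 fold change 2.95, SE 0.22, edgeR adjusted p = 4.34e-05). Of 21 bone matrix genes 8 rose and 1 fell, Phex (53.3 and 38.2 against 92.7 and 109 CPM). Col1a1 did not pass (1.07, adjusted p = 0.0887). Of 16 reticular niche genes 11 fell, Cxcl12 from 8255 and 8146 CPM to 1787 and 1585, Kitl from 1037 and 1113 to 174 and 207, and Lepr, the leptin receptor of marrow stroma, from 904 and 1106 to 180 and 270. Dmp1 rose, from 1.21 and 1.85 CPM to 92.0 and 47.4. The label markers Pdk4, Omd and Npy passed here, with log2 fold changes of 2.23, 3.54 and 4.59. Npy had UMIs in only 2 members of Mouse #1.

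The Wnt pathway list moved both ways against reticular cells. Of 21 genes 6 rose, the transcription factors Lef1 (16.8 and 17.0 against 1.46 and 1.16 CPM) and Tcf7, the feedback inhibitor Axin2 (11.5 and 15.5 against 3.97 and 2.70), Ctnnb1, Lrp4 and the ligand Wnt5a. Another 7 fell, with the secreted antagonists Sfrp2 and Sfrp4 (160 and 248 against 932 and 1033 CPM) and the enhancer Rspo2 among them. Lef1 was at 14.4 and 17.1 CPM in Ptprc cells, as high as in members. Mgll, a lipase of monoacylglycerols, stood at 131 and 118 against 3.51 and 4.47 CPM, the cadherin-related Fat3 at 77.5 and 93.7 against 0.151 and 2.87, and Col25a1, Car8 and the channel gene Panx3 rose too. None of these genes was called between high and low preosteoblasts without the block. In low preosteoblasts Fat3 was at 135 and 178 CPM, above members of both mice, and Mgll at 110 and 108. Panx3 was at 37.8 and 54.0 CPM there against 38.7 and 30.4 in members. Col25a1 was at 24.3 and 12.6 against 36.9 and 12.4, and Car8 at 29.0 and 25.5 against 37.2 and 30.2. Cbln1, Chrdl1, Fmo2, Prelp and Ly6a were lower in members than in reticular cells. Ptchd1 had 2 UMIs in members, a ratio of 91.5 (counting interval 25.3 to 756). Of 10 immediate early and heat shock genes 5 fell. Leaving out the members of Mouse #1 left 1162 calls and leaving out those of Mouse #2 left 919.

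The tdTomato feature was at 54.7 and 72.5 CPM in members and 763 and 1052 in reticular cells (log2 fold change -3.84, SE 0.57, edgeR adjusted p = 0.00148). Ptprc cells had 46.9 and 101 CPM. eGFP was at 3665 and 2673 CPM in members against 11858 and 11253 in reticular cells, a difference that did not pass (-1.87, adjusted p = 0.159). Ptprc cells had 498 and 1080 CPM of eGFP, below members of both mice. Reporter features can share engineered stretches, so their counts are uncertain.

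Markers of other cells were summed in the members, with low cells beside them where the sums were larger. The 5 endothelial markers summed to 3.35 and 2.58 CPM, the 6 periosteal fibroblast markers to 1.86 and 4.61 and the lymphoid markers to 3.72 and 2.03. The 6 chondrocyte markers summed to 75.6 and 47.4 CPM against 46.3 and 23.8 in low cells, nearly all from Col2a1 (74.9 and 46.7 CPM in members), with Acan and Matn1 at 0. The 5 osteoclast markers summed to 197 and 165 CPM against 163 and 127 in low cells, and Ocstamp and Calcr were at 0. The 4 mural markers summed to 320 and 297 CPM against 155 and 141 in low cells, mostly Acta2 and Notch3 (83.4 and 83.5 CPM). The 5 myeloid markers summed to 162 and 122 CPM against 167 and 426 in low cells. The 5 osteocyte markers summed to 148 and 86.1 CPM against 22.9 and 13.4 in low cells, 97.8 and 119 in reticular cells and 115 and 92.4 in mature osteoblasts. Members had the highest sum in Mouse #1 and not in Mouse #2. The 4 hemoglobin genes summed to 7359 and 3135 CPM in members, of which 1 cell a mouse held 95.9% and 91.3%, and to 358 and 11199 in low cells. The part of other cells in the differences above was not tested.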

How the data were processed

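Both libraries were 10x Chromium v3 libraries of FACS-isolated femur cells. The authors deposited raw UMI counts per feature and barcode, which per the file headers come from Cell Ranger 3.0.0. Reads had been mapped to mm10 with added reporter sequences. A minimum of 1000 genes and a ceiling of 15% mitochondrial UMIs left 2750 and 4582 barcodes. Counts of cells were summed per mouse and class and fitted in edgeR 4.0.16 (R 4.3.3) by the quasi-likelihood test with TMM, filterByExpr and Benjamini-Hochberg adjustment at 0.05. The 4 classes shared a fit, as did the 3 leader groups. The 16 genes of the rule were removed before each fit and are described, not tested. Deviations of same-mouse sums correlated at 0.264 for high and low preosteoblasts, 0.103 for high preosteoblasts and mature osteoblasts, 0.261 with reticular cells, and 0.219 and 0.223 between leader groups. The pairing is by mouse, and since each mouse had its own library, animal and library cannot be told apart. With 2 mice, p-values without the block measure the spread between these 2 animals within classes, pooled over the classes of a fit. P-values with the block measure the spread left after a shift shared by all classes of a mouse is taken out. Neither reaches beyond these 2 animals.

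Genes were named among those called, with the same direction in both mice and 20 CPM or more in the mean of one class, as the 12 highest and lowest (6 in other comparisons) by log2 fold change, together with called list members. The members and lists were chosen with earlier results of these data known. Scrublet (scanpy 1.11.5, Python 3.11.15) called 2 and 3 doublets, too few to have worked, so cells with the highest scores were left out only as an alternative. Gene positions are from GENCODE for GRCm38 and promoters from RefSeq. Scripts were tested on simulated data. Alternatives were DESeq2 1.42.0, RLE scaling, low-count filters, cell limits, thinning and leaving out each mouse.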

Additional observations from a re-analysis of the deposited data

How the results depend on the processing

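Genes named from the fits without the mouse block gave 52 gene results, with 773 values under the alternatives. Direction and call were kept in 717 of these values, and 53 kept the direction but lost the call. The other 3 were hemoglobin genes of Postn-led against Spp1-led members, whose log2 fold changes turned to -0.0027 (Hba-a1), -0.63 (Hba-a2) and -0.34 (Hbb-bt) when cells with over 1% hemoglobin UMIs were left out. Of high against low preosteoblasts, only Dmp1, Timp1, Ank and Cpz were among the 52 results. Genes named from the blocked fit alone were not followed under the alternatives. With cells thinned to 3000 UMIs, 29 results kept the call, 12 lost it and the rest were not tested there. Counts of called genes moved more. With the mouse as replicate block, 32 instead of 5 were called in high against low preosteoblasts, 330 instead of 41 in Postn-led and 410 instead of 57 in Mmp13-led against Spp1-led members. With the block and only the classes compared, the counts were 276, 437 and 448, and 3740 against reticular cells. Without a filter on low counts they were 339, 280 and 294 in the first 3 comparisons. DESeq2 called 25 in high against low preosteoblasts, and the highest against the lowest part by score gave 53. Cells thinned to 3000 UMIs gave 18 calls in high against low preosteoblasts, 214 against mature osteoblasts, 1330 against reticular cells, 13 for Postn-led and 17 for Mmp13-led members. A single score threshold for both mice gave 93 for Postn-led and 95 for Mmp13-led members. Leaving out preosteoblasts with 20 or more Bglap plus Bglap2 per 10000 gave 1 call in high against low preosteoblasts and 35 for Mmp13-led members. Leaving out 1 mouse of the first-named class gave 0 to 2 calls in high against low preosteoblasts, 1046 to 1185 against mature osteoblasts, 919 to 1162 against reticular cells, 17 to 61 for Postn-led and 10 to 35 for Mmp13-led members. The lone remaining sum was then assumed to vary like the other classes. The cause of these shifts was not tested, beyond the fewer samples or cells that some settings use. The single score threshold, the limits on hemoglobin and osteocalcin and the block within the classes compared were added after seeing the data. The block kept the call and direction of all 52 gene results named without it. The number of members was 329 under stricter cell limits, 459 after thinning and 439 without the highest Scrublet scores. Depth and the 9 mature osteoblasts of Mouse #1 limit what low genes can show.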
